A study of Mus musculus with 9 samples.

Results

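The mouse Cyp2j genes encode cytochrome P450 enzymes of the 2J subfamily. The 8 members described here are Cyp2j5, Cyp2j6, Cyp2j7, Cyp2j8, Cyp2j9, Cyp2j11, Cyp2j12 and Cyp2j13, taken by gene name from the 52405 entries of the deposited expression table. Each has 1 entry, and 5 further entries with a Cyp2j name are pseudogenes. RNA was sequenced from 9 libraries of C57BL/6 mouse kidney cortex cells, 3 from females ovariectomized at postnatal day 21 (D21-ovx), 3 from females given a sham operation at day 21 (D21-s) and 3 from sham-operated adult males (M). No genotype other than the C57BL/6 strain is labelled, and the females' age at collection and the males' day of surgery are not given in the labels used here. The cells were those that an antibody to prominin-1, a protein of the proximal tubule brush border, held on a magnetic column. The labels call the libraries biological replicates without saying whether each came from 1 animal or from several, so p-values measure the spread between these libraries.

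P450 2J enzymes are monooxygenases of the endoplasmic reticulum. Members of the subfamily add an oxygen atom across a double bond of arachidonic acid and so make epoxyeicosatrienoic acids, lipid mediators that in the kidney act on vessel tone and on sodium transport. NADPH-P450 reductase passes them electrons, and soluble epoxide hydrolase, encoded by Ephx2, turns the epoxides into diols. Humans have a single functional gene of this subfamily, CYP2J2, whereas the mouse has a tandem array on chromosome 4.

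The protein-coding members were close in sequence over the loop that carries the cysteine bound to the heme iron, which defines a P450. The 60 coding bases around it are shown for all 8 members because they show how alike the genes are that the reads had to tell apart. They were read from GENCODE M21 transcripts (build GRCm38), and all lie on chromosome 4. Capitals mark bases that differ from Cyp2j5.
Cyp2j5: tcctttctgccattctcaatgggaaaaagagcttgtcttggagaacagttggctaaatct
Cyp2j6: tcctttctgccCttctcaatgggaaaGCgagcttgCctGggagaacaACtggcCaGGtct
Cyp2j7: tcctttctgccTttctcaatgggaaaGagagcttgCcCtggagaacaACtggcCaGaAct
Cyp2j8: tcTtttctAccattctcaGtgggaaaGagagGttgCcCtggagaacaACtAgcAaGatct
Cyp2j9: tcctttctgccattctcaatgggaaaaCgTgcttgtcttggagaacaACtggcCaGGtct
Cyp2j11: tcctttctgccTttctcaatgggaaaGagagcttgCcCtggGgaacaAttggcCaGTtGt
Cyp2j12: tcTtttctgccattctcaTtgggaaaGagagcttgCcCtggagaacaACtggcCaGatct
Cyp2j13: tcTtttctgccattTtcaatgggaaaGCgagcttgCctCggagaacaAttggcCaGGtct

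Between 7 and 12 of these 60 bases differed from Cyp2j5. Over the whole coding sequence the nearest pair was Cyp2j8 and Cyp2j11, at 88.9% identity, followed by Cyp2j7 and Cyp2j11 at 87.1%. Cyp2j13 was nearest to Cyp2j9, at 80.5%, and Cyp2j5 was nearest to Cyp2j6, at 78.4%. Stretches of 50 bases that also occur in a transcript of another gene made up 2.32% of all such stretches in Cyp2j7, 1.34% in Cyp2j11, 0.127% in Cyp2j13 and none in Cyp2j9. Cyp2j7 and Cyp2j11 share 18 of these stretches. How the authors' counting treated reads from shared stretches was not tested, and values of the weakly expressed members are uncertain to that extent.

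The promoters of the 2 members that changed between the sexes and of the one with the highest level are shown because these members differ in sex pattern while lying in the same array. They run from 250 bases before the RefSeq start site to 30 bases from it on (build GRCm38.p6, minus strand, chromosome 4). Capitals mark matches, on either strand, to any of 5 short motifs. The letters AGAACA are part of the site that several steroid hormone receptors share. For HNF1, a factor of the tubule epithelium, GTTAAT was searched, and for HNF4, a factor of proximal cells, CAAAGT. For STAT factors, which act below the prolactin and growth hormone receptors, the letters were TTCNNNGAA, and for the TATA box TATAAA. No 2 of the matches overlapped. Of the 8 members, 7 have a promoter entry in the RefSeq table, and Cyp2j7 has none.
Cyp2j13, chr4:96077511-96077790: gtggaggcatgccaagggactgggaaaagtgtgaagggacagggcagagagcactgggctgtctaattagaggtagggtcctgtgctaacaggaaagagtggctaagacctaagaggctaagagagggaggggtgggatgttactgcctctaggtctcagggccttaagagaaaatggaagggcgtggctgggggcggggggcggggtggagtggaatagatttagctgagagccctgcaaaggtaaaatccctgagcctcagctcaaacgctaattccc
Cyp2j11, chr4:96348651-96348930: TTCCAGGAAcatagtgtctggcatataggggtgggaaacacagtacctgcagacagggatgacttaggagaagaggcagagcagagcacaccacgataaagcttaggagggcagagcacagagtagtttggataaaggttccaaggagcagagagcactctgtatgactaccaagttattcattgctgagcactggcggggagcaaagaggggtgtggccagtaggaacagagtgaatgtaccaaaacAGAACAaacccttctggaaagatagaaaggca
Cyp2j5, chr4:96664090-96664369: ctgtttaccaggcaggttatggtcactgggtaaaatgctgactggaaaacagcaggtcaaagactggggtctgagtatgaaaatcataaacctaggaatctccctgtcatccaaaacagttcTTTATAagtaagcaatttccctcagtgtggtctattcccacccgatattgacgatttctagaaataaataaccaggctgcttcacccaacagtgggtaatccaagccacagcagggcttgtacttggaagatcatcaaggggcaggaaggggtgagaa

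The Cyp2j13 window held no match to any of these motifs. In the Cyp2j11 window the steroid receptor motif began at base -2 and the STAT motif at base -250, counted from the start site. The Cyp2j5 window held the TATA motif, on the opposite strand, at base -128. Among the 7 listed Cyp2j windows, 3 held the steroid receptor motif, 2 the HNF4 motif, 2 the STAT motif, 1 the TATA motif and none the HNF1 motif. Among all 32851 windows of this length in the table, 17.8% held the steroid receptor motif, 13.7% the HNF4 motif, 7.83% the STAT motif, 13.1% the TATA motif and 6.85% the HNF1 motif. A match is a run of letters and was not tested as a binding site, and Cyp2j13 has a second listed start whose window was not used here.

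Levels are given as FPKM, fragments per kilobase of transcript scaled to the mapped fragments of the library, as deposited. Tests used log2(FPKM + 1), limma and Benjamini-Hochberg adjustment over the 13160 genes that reached 1 FPKM in at least 3 of the 9 libraries, and a gene is called changed at an adjusted p under 0.05. Of the 8 members, 6 entered the test, while Cyp2j8 and Cyp2j12 were below the filter. FPKM steps of single reads gave an estimated depth of 21750000 to 28750000 reads per library. The libraries held proximal tubule RNA mainly: the 12 proximal tubule markers summed to 9559 to 10349 FPKM in D21-ovx libraries, 8866 to 9798 in D21-s libraries and 6958 to 8032 in M libraries, and none was at 0. Markers of other cells were present too, and the sums of several cell types were higher in M libraries. The 5 distal convoluted tubule markers summed to 453 to 674 FPKM in D21-ovx, 324 to 664 in D21-s and 830.3 to 1153 in M libraries. Thick ascending limb markers summed to 1250 to 1696 FPKM in D21-ovx, 991 to 1597 in D21-s and 1529 to 2514 in M libraries, with overlap between the sexes. Of these 6 markers, 1 was called higher and 3 lower in D21-s against M, beside 4.28% and 4.87% of all genes tested. In D21-ovx against M, 1 was called higher and 0 lower, beside 5.63% and 6.19%. Cldn10 was at 91.76 to 96.75 FPKM in D21-ovx, 101.52 to 105.61 in D21-s and 71.93 to 83.88 in M libraries. Collecting duct principal cell markers gave 148 to 224 FPKM in D21-ovx, 128 to 199 in D21-s and 244 to 343 in M libraries. For intercalated cells the sums were 38.4 to 69.0 FPKM in D21-ovx, 29.9 to 57.3 in D21-s and 75.6 to 115 in M libraries. Endothelial markers summed to 62.7 to 106 FPKM in D21-ovx, 30.2 to 112.8 in D21-s and 113.5 to 204 in M libraries, and podocyte, fibroblast and leukocyte markers overlapped or were low, with leukocyte sums of at most 13.0 FPKM. Of 4 markers of small intestine and brain, Fabp2 and Snap25 were listed at 0 in every library, Gfap reached at most 0.16 FPKM, and Vil1, which the proximal tubule brush border also holds, was at 76.8 to 80.03 FPKM in D21-ovx, 73.6 to 87.6 in D21-s and 62.3 to 72.5 in M libraries.

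Cyp2j5 was the most abundant member in every library and did not pass the test in any comparison. Cyp2j13 stood at 0.45 FPKM or less in every female library and was the second member by level in males. Cyp2j11 was higher in both female groups than in males. In D21-s against M libraries, 1 tested member was higher (Cyp2j11) and 1 lower (Cyp2j13), where 9.15% of all genes tested were called, 4.28% higher and 4.87% lower. In D21-ovx against M libraries the same 2 members were called in the same directions, where 11.8% of all genes were called, 5.63% higher and 6.19% lower. Both comparisons share the 3 M libraries. Over all genes the calls were 563 higher and 641 lower in D21-s against M, or 845 and 471 under median-ratio scaling and 702 and 472 under quantile normalization. In D21-ovx against M they were 741 higher and 814 lower, or 1024 and 490 under median-ratio scaling and 772 and 541 under quantile normalization. Cyp2j11 and Cyp2j13 kept their calls and directions under both. Cyp2j13 passed the filter on low values only through the M libraries.

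**Figure D1:**
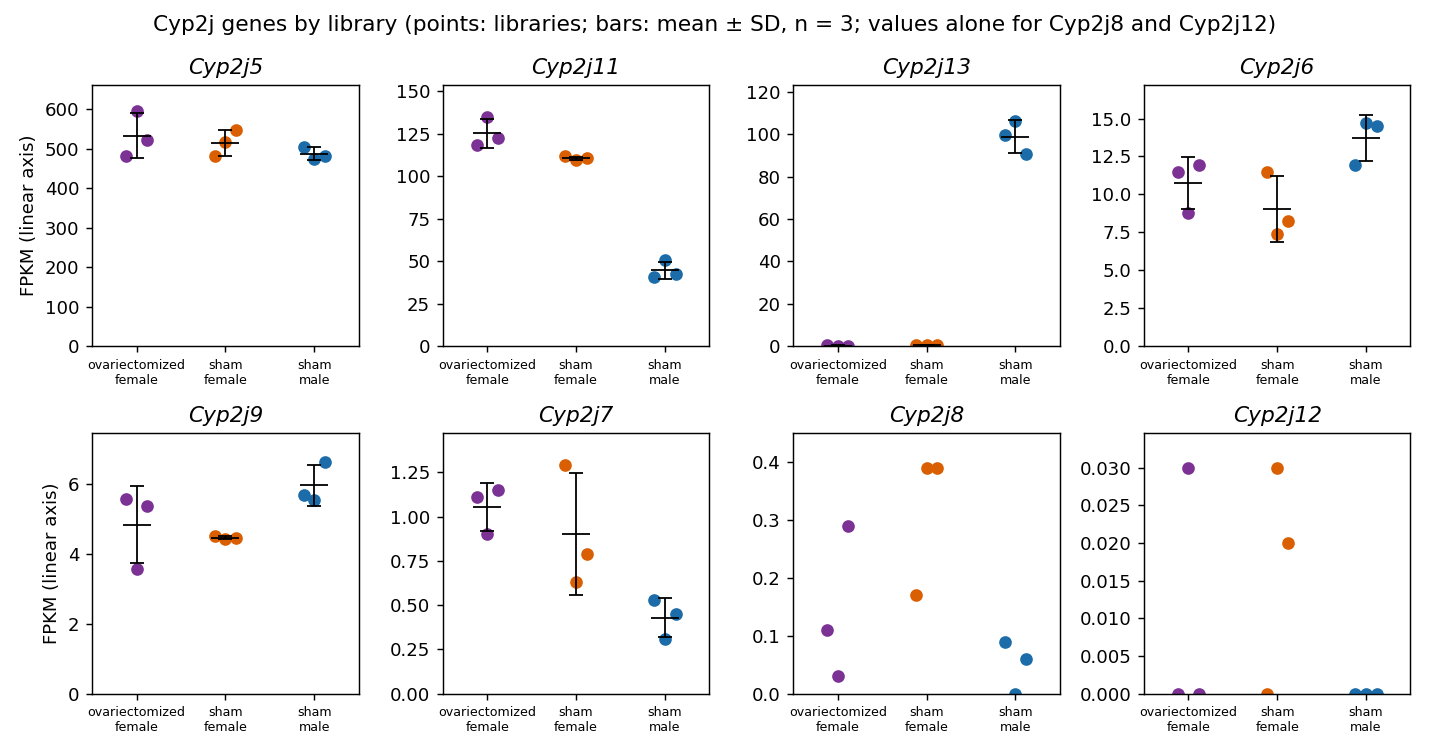
FPKM (linear axes, each from 0) of the 8 Cyp2j members in D21-ovx, D21-s and M libraries, with points for libraries and bars for the mean ± SD (n = 3). Cyp2j13 lies at 0.45 FPKM or less in females and at 90.7 to 106 in males, and Cyp2j11 lies at 109.8 or more in females and at 50.5 or less in males.

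Cyp2j13 (ENSMUSG00000028571, chr4:96027534-96077546, minus strand, GRCm38) encodes a P450 2J enzyme and is the member at the low-coordinate end of the array. Its level was 0.26, 0.20 and 0.12 FPKM in D21-ovx libraries, 0.45, 0.40 and 0.35 FPKM in D21-s libraries and 99.4, 106 and 90.7 FPKM in M libraries. All female libraries lay far below all male libraries, and the female groups did not overlap each other. A lower value without overlap was found for 20.6% of all genes in D21-s against M and 23.2% in D21-ovx against M. In D21-ovx against D21-s that share was 6.09%. The mean of Cyp2j13 was 0.193 ± 0.0702 FPKM in D21-ovx, 0.400 ± 0.05 in D21-s and 98.8 ± 7.87 in M libraries (SD, n = 3 each). Cyp2j13 entered the test only through the M libraries, where it was high, which limits what a p-value adds to these values. On the log2(FPKM + 1) scale the difference was -6.15 (SE 0.097, adjusted p = 1.45e-09) in D21-s against M and -6.39 (SE 0.097, adjusted p = 1.07e-09) in D21-ovx against M. This scale understates the change of a gene near 0: the ratio of mean FPKM in M libraries was 247 over D21-s and 511 over D21-ovx libraries. In these bulk samples, fewer cells of a type and less RNA per cell cannot be told apart.

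The female values of Cyp2j13 rested on few reads. With the longest annotated transcript they corresponded to about 11 to 28 reads in D21-ovx and 39 to 55 reads in D21-s libraries, against 9736 to 10138 reads in M libraries. With the 1648-base transcript Cyp2j13-202 they corresponded to about 4 to 10 reads in D21-ovx, 14 to 20 in D21-s and 3555 to 3702 in M libraries. With the 771-base transcript Cyp2j13-204 the numbers were about 2 to 5 reads in D21-ovx, 6 to 9 in D21-s and 1567 to 1631 in M libraries. Which transcript the reads came from is not given in the sources used here. In D21-ovx against D21-s libraries the difference was -0.23 (SE 0.097, unadjusted p = 0.0407, adjusted p = 0.762), so the lower values after ovariectomy did not pass the test. An exact two-sided permutation test on FPKM gave p = 0.1, the smallest that 3 libraries against 3 can give.

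Cyp2j11 (ENSMUSG00000066097, chr4:96294508-96348662, minus strand) encodes another P450 2J enzyme. It was at 118, 135 and 122 FPKM in D21-ovx libraries, 111.6, 109.8 and 110.5 FPKM in D21-s libraries and 40.9, 50.5 and 42.2 FPKM in M libraries. The 3 groups did not overlap, and every female library was above every male one. A higher value without overlap was found for 9.66% of all genes in D21-s against M and 10.9% in D21-ovx against M. In D21-ovx against D21-s that share was 6.76%. The mean of Cyp2j11 was 125 ± 8.71 FPKM in D21-ovx, 111 ± 0.908 in D21-s and 44.5 ± 5.20 in M libraries (SD, n = 3 each). The difference was 1.30 (SE 0.086, adjusted p = 2.59e-05, 2.49-fold by mean FPKM) in D21-s against M and 1.48 (SE 0.086, adjusted p = 1.02e-05, 2.81-fold) in D21-ovx against M. In D21-ovx against D21-s libraries the difference was 0.17 (SE 0.086, adjusted p = 0.830, 95% interval -0.02 to 0.37), and the exact permutation test gave p = 0.1, again the smallest possible. Of 12 proximal tubule markers, 7 were called higher in D21-s and 5 in D21-ovx than in M libraries, beside 4.28% and 5.63% of all genes tested. In both comparisons 0 were called lower, although Slc5a2 was at 466, 488 and 580 FPKM in D21-ovx, 497, 508 and 656 in D21-s and 901, 568 and 745 in M libraries. With the mean of these markers, r of Cyp2j11 was 0.933 over all libraries and -0.084 after each group's mean was taken off. The part of these markers in the difference of Cyp2j11 was not tested.

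Cyp2j5 (ENSMUSG00000052520, chr4:96628773-96664154, minus strand) encodes an arachidonic acid epoxygenase known from mouse kidney proximal tubule and liver. It was at 482, 595 and 523 FPKM in D21-ovx libraries, 481, 518 and 547 FPKM in D21-s libraries and 505, 474 and 482 FPKM in M libraries. The groups overlapped. The mean was 533 ± 57.4 FPKM in D21-ovx, 515 ± 32.6 in D21-s and 487 ± 16.4 in M libraries (SD, n = 3 each). The difference was 0.08 (95% interval -0.11 to 0.27, adjusted p = 0.571) in D21-s against M, 0.05 (-0.14 to 0.23, adjusted p = 0.996) in D21-ovx against D21-s and 0.13 (-0.06 to 0.31, adjusted p = 0.345) in D21-ovx against M. Among the 134 P450 entries of the table it ranked 1st by mean FPKM in D21-ovx, 1st in D21-s and 3rd in M libraries. By Pearson r over all libraries, Cyp2j5 rose with proximal tubule markers (0.658) and fell with the markers of other cells (-0.805). After each group's mean was taken off, these r were 0.821 and -0.881. The part of cell make-up in its level was not tested.

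In males Cyp4b1 and Cyp2e1 stood above Cyp2j5, at 1345 ± 179 and 618 ± 104 FPKM. Cyp2j11 ranked 7th in D21-ovx, 8th in D21-s and 10th in M libraries among the P450 entries. Cyp2j13 ranked 45th in D21-ovx, 44th in D21-s and 5th in M libraries.

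Summed over the 8 members, the signal was 675 ± 63.3 FPKM in D21-ovx, 641 ± 30.2 in D21-s and 650.3 ± 13.9 in M libraries (SD, n = 3 each), and the groups overlapped. Cyp2j5 made up 78.9%, 80.3% and 74.9% of that sum, on average, in D21-ovx, D21-s and M libraries. Cyp2j11 made up 18.6% in D21-ovx, 17.3% in D21-s and 6.85% in M libraries. Cyp2j13 made up 0.0290% in D21-ovx, 0.0627% in D21-s and 15.2% in M libraries. The remainder came from the other 5 members. Cyp2j11 and Cyp2j13 together gave 125 FPKM in D21-ovx, 111 in D21-s and 143 in M libraries. As a share of the summed FPKM of all P450 entries, the Cyp2j genes held 26.1% in D21-ovx, 26.6% in D21-s and 19.9% in M libraries, without a test, since the members were chosen.

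**Figure D2:**
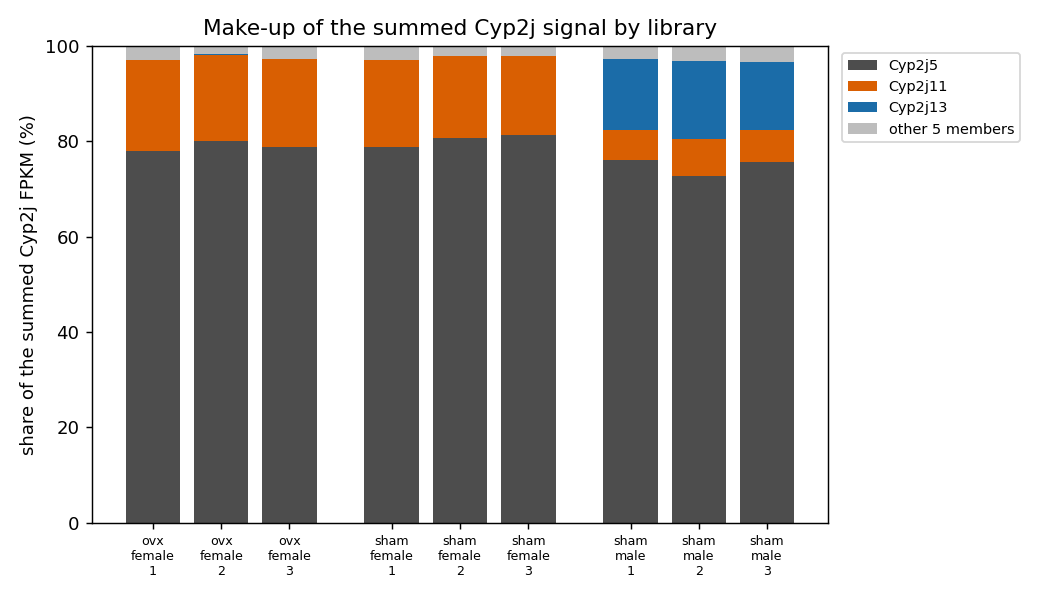
Share (%) of each member in the summed Cyp2j FPKM of a library, stacked, for D21-ovx (left), D21-s (middle) and M libraries (right). Cyp2j5 makes up 72.8% to 81.4% of every bar, and Cyp2j13 is seen in the male bars, at 14.3% to 16.3%.

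Cyp2j6 (ENSMUSG00000052914, chr4:96516138-96553661, minus strand), which in the mouse is best known from the small intestine, stood next to Cyp2j11 in level in both sexes. It was at 11.49, 8.80 and 11.9 FPKM in D21-ovx libraries, 11.47, 7.39 and 8.23 FPKM in D21-s libraries and 11.96, 14.7 and 14.5 FPKM in M libraries. Both female groups lay below the males without overlap, by a narrow margin. Groups did not overlap, in either direction, for 30.3% of all genes in D21-s against M and 34.1% in D21-ovx against M, and a lower value without overlap was found for 20.6% and 23.2%. The difference was -0.57 (SE 0.166, adjusted p = 0.0652) in D21-s against M, -0.33 (adjusted p = 0.223) in D21-ovx against M and 0.24 (adjusted p = 0.949) in D21-ovx against D21-s, so none was called. Without D21-s replicate 1 the first of these was called, at -0.74 (adjusted p = 0.02).

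Cyp2j6 moved with genes of the distal nephron. By Pearson r of log2(FPKM + 1) over the 9 libraries, the tested genes most like it included Slc12a3 (r = 0.987), the thiazide-sensitive sodium chloride cotransporter, and Scnn1a (r = 0.986), a subunit of the epithelial sodium channel. Slc12a3 was at 357, 227 and 353 FPKM in D21-ovx, 355, 167 and 204 FPKM in D21-s and 457, 569.8 and 619 FPKM in M libraries. Libraries low in one gene were low in the other, also inside a group. With the mean of the distal convoluted tubule markers, r was 0.986 over all libraries and 0.974 after each group's mean was taken off, and with proximal tubule markers it was -0.850. With the other cells' marker score as a covariate, the difference of Cyp2j6 was -0.10 (adjusted p = 0.901) in D21-s against M and 0.05 (adjusted p = 0.927) in D21-ovx against M. That score was 0.232 to 0.729 in M libraries and at most 0.135 in female libraries, so the fit cannot tell cell make-up and sex apart. Over all genes, 1204 were called in D21-s against M without the score and 298 with it. The correlations describe libraries that share depth and cell make-up. The part of cell make-up in the values of Cyp2j6 was not tested.

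**Figure D3:**
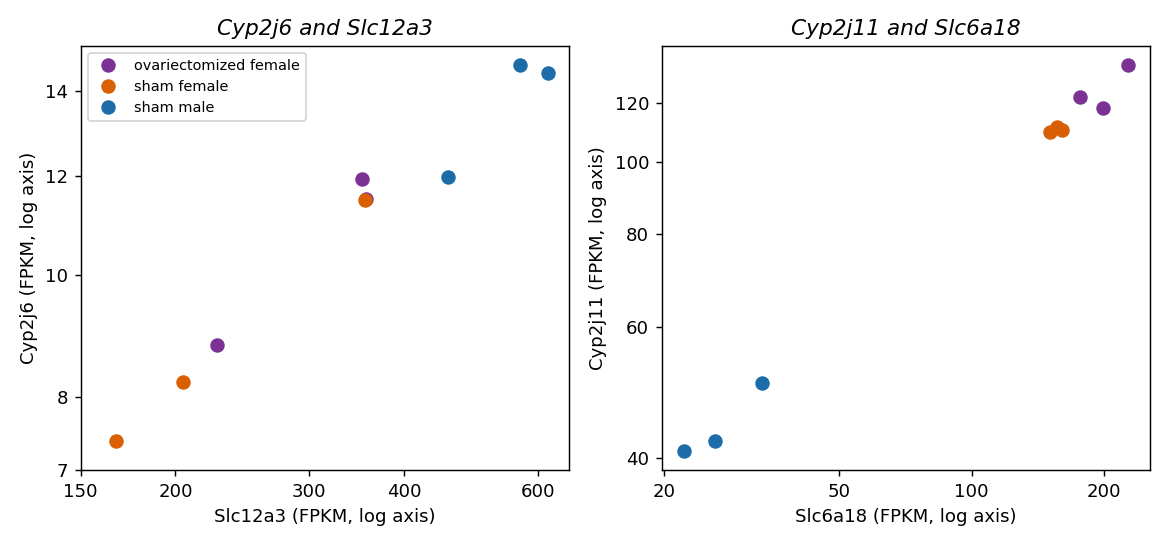
Left, FPKM of Cyp2j6 against that of Slc12a3, and right, of Cyp2j11 against that of Slc6a18, on log axes, with 1 point a library. Cyp2j6 follows Slc12a3 within and across groups (r = 0.987 on the log2(FPKM + 1) scale), and Cyp2j11 and Slc6a18 fall into a male and a female set (r = 0.998).

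Cyp2j9 (ENSMUSG00000015224, chr4:96568429-96591578, minus strand), known in the mouse from brain, was at 5.58, 3.58 and 5.37 FPKM in D21-ovx, 4.51, 4.43 and 4.46 FPKM in D21-s and 5.69, 5.56 and 6.64 FPKM in M libraries. D21-s libraries lay below M libraries, as for 20.6% of all genes tested, and D21-ovx libraries overlapped both. The difference was -0.35 (adjusted p = 0.158) in D21-s against M, 0.08 (adjusted p = 0.996) in D21-ovx against D21-s and -0.27 (adjusted p = 0.246) in D21-ovx against M. The genes most like it were Nhej1, Mta3 and Psma5-ps, with r of 0.973, 0.959 and 0.955.

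Cyp2j7 (ENSMUSG00000081362, chr4:96195197-96236659, minus strand) is protein coding in GENCODE and a pseudogene in RefSeq. It was at 1.11, 0.90 and 1.15 FPKM in D21-ovx, 1.29, 0.63 and 0.79 FPKM in D21-s and 0.53, 0.31 and 0.45 FPKM in M libraries. It passed the filter on low values only through female libraries. Every female library was above every male one, as for 9.66% of all genes in D21-s against M and 10.9% in D21-ovx against M. The difference was 0.40 (adjusted p = 0.150) in D21-s against M and 0.52 (adjusted p = 0.0680) in D21-ovx against M, and neither was called. These values stood on about 29 to 41 reads in D21-ovx, 21 to 52 in D21-s and 10 to 18 in M libraries. Cyp2j11, with which Cyp2j7 shares sequence, moved the same way (r = 0.806 between them over 9 libraries), and the part of shared reads in the values of Cyp2j7 was not tested.

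Cyp2j8 (ENSMUSG00000082932, chr4:96444596-96507386, minus strand) was at 0.11, 0.03 and 0.29 FPKM in D21-ovx, 0.17, 0.39 and 0.39 FPKM in D21-s and 0.09, 0 and 0.06 FPKM in M libraries, or about 1 to 9 reads in D21-ovx, 7 to 16 in D21-s and 0 to 3 in M libraries. D21-s libraries lay above M libraries, and the other pairs of groups overlapped, at a depth of few reads. Among genes tested, 9.66% lay higher without overlap in D21-s against M. Cyp2j8 is not among them, so that share may not hold for so low a gene. Cyp2j12 (ENSMUSG00000081225, chr4:96099318-96141152, minus strand) was listed at 0 in 2 of 3 D21-ovx, 1 of 3 D21-s and 3 of 3 M libraries and reached at most 0.03 FPKM, about 1 read. The 5 pseudogene entries were at 0.69 FPKM or less in every library.

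In females the order of mean levels was Cyp2j5, Cyp2j11, Cyp2j6, Cyp2j9, Cyp2j7, Cyp2j13, Cyp2j8 and Cyp2j12, in D21-ovx as in D21-s. Neighbours in that order did not overlap, except Cyp2j13 and Cyp2j8 in both female groups and Cyp2j8 and Cyp2j12 in D21-ovx. In males Cyp2j13 stood second, between Cyp2j5 and Cyp2j11, and the other members kept their places. There only Cyp2j8 and Cyp2j12 overlapped.

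Between the female groups, which differ by removal of the ovaries, no tested member was called in D21-ovx against D21-s libraries, where 0.0076% of all genes tested, that is 1 gene, were called by limma and 6.29% had an unadjusted p under 0.05. Of the members, 2 did not overlap between these groups: Cyp2j11 was higher in all D21-ovx libraries and Cyp2j13 lower. Groups did not overlap for 12.9% of all genes, 6.76% higher and 6.09% lower. The 95% intervals of the difference were -0.14 to 0.61 for Cyp2j6, -0.24 to 0.40 for Cyp2j9 and -0.24 to 0.48 for Cyp2j7. Same-numbered libraries of the female groups deviated together, and with the replicate number as a block no member was called either, and no gene at all.

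Along chromosome 4 the members spanned 637 kb, chr4:96027534-96664154, with all 13 Cyp2j entries on the minus strand. Cyp2j13 and Cyp2j11 start 271 kb apart, and between them lie Cyp2j12, at about 1 read or none, and Cyp2j7, which was not called. Next to Cyp2j13, outside the array, lies Hook1, encoding a microtubule linker protein, with 30.4 FPKM in D21-ovx, 27.9 in D21-s and 29.6 in M libraries on average. It was not called, at -0.08 (adjusted p = 0.646) in D21-s against M and 0.04 (adjusted p = 0.823) in D21-ovx against M. Fggy, encoding a carbohydrate kinase and lying beyond Hook1, averaged 139.6 FPKM in D21-ovx, 118 in D21-s and 87.1 in M libraries, with a difference of 0.43 (adjusted p = 0.00542) in D21-s against M and 0.68 (adjusted p = 0.000309) in D21-ovx against M. Its first call was lost with the other cells' marker score as a covariate (0.36, adjusted p = 0.198). Jun was not called in either comparison with males. On the far side, Gm12695 and E130114P18Rik were at 0.0333 FPKM or less on average, and Gm10192 was not analysed here.

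**Figure D4:**
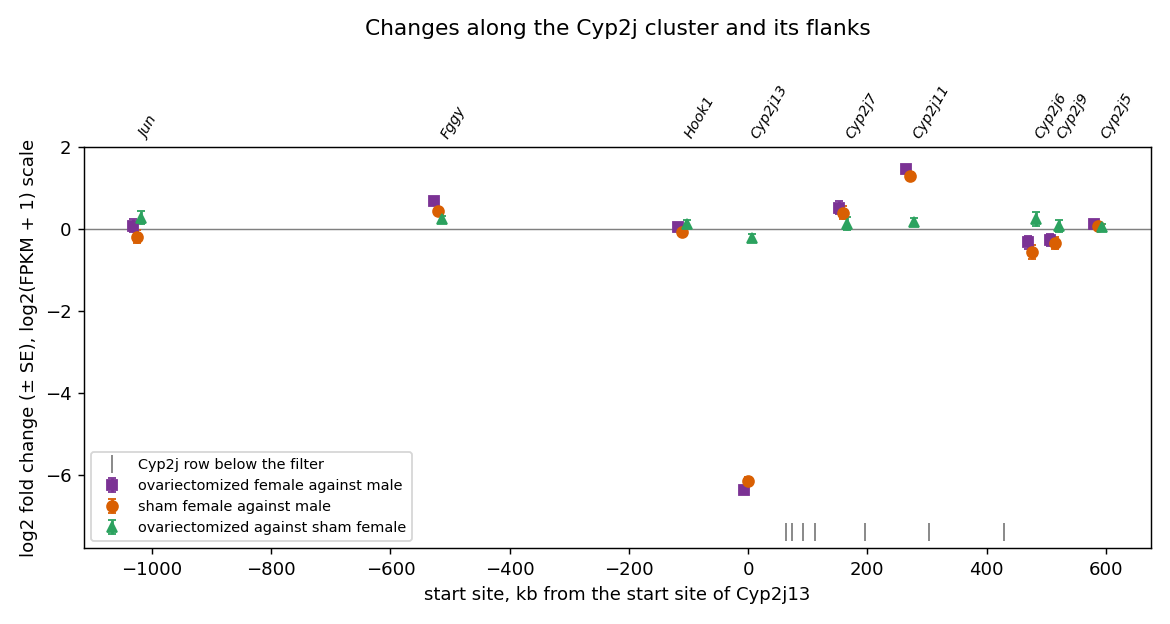
Differences (log2(FPKM + 1) scale, ± SE) of tested Cyp2j genes and flanking genes against the distance of their start site from that of Cyp2j13 (kb), for D21-ovx against M, D21-s against M and D21-ovx against D21-s; small bars mark Cyp2j entries below the filter. Cyp2j13 stands at -6.39 and -6.15 and Cyp2j11 at 1.48 and 1.30 in the comparisons with males, with Cyp2j7 between them at 0.52 and 0.40.

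The genes most like Cyp2j11 were Slc6a18 (r = 0.998), encoding a neutral amino acid transporter of the proximal tubule brush border, Slc22a13 (r = 0.994), encoding an organic anion transporter, and Tmbim6 (r = 0.994). Slc6a18 was at 199, 227 and 176 FPKM in D21-ovx, 156, 150.4 and 160.4 FPKM in D21-s and 22.1, 33.4 and 26.0 FPKM in M libraries, so that it too was higher in every female library. That holds for 9.66% of all genes tested in D21-s against M and 10.9% in D21-ovx against M. The genes most like Cyp2j13 were Eif2s3y, Ddx3y and Kdm5d, all carried on the Y chromosome, each with r of 0.999 and listed at 0 in every female library. For Cyp2j5 the genes were Slc29a2, Galnt14 and Zgpat, with r of 0.912, 0.907 and 0.905, over a range of only 0.33 in log2 of the member itself. For Cyp2j7 they included Pcbp2 and Cnn1, with r of 0.954 and 0.948. Between Cyp2j13 and Cyp2j11, r was -0.986. With 2 sets of libraries, male and female, an r near 1 or -1 shows little more than a shared sex difference.

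The partners of the P450s changed less than Cyp2j13 or Cyp2j11. Por, encoding NADPH-P450 reductase, was at 157, 150.3 and 147 FPKM in D21-ovx, 155, 159 and 139 FPKM in D21-s and 113, 108 and 95.6 FPKM in M libraries. It was higher in every female library, as for 9.66% of all genes in D21-s against M and 10.9% in D21-ovx against M. The difference of Por was 0.51 (adjusted p = 0.00398) in D21-s against M and 0.52 (adjusted p = 0.00286) in D21-ovx against M. Of 14 genes of electron transfer and heme supply, all tested, 2 were higher and 1 lower in D21-s against M (median 0.07). In D21-ovx against M, 4 were higher and 1 lower (median -0.00249). The medians over all genes tested were -0.09 and -0.09. Of all genes tested, 4.28% were called higher and 4.87% lower in D21-s against M, and 5.63% and 6.19% in D21-ovx against M. Alad, of heme synthesis, was called higher in both, at 0.31 (adjusted p = 0.0470) in D21-s and 0.30 (adjusted p = 0.0470) in D21-ovx against M. Cyb5a, encoding cytochrome b5, was called lower in D21-s against M, at -0.28 (adjusted p = 0.0492). In D21-ovx against M, Ppox, also of heme synthesis, was higher at 0.35 (adjusted p = 0.0320), Pgrmc1 higher at 0.23 (adjusted p = 0.0268) and Cyb5r3, encoding cytochrome b5 reductase, lower at -0.39 (adjusted p = 0.0249). Of 18 alternative settings, 10 ended the call of Alad in D21-s against M and 12 in D21-ovx against M. The call of Cyb5a was ended by 12, that of Pgrmc1 by 9, that of Ppox by 7 and that of Cyb5r3 by 5. Por lost 1 of its calls, with the other cells' marker score as a covariate in D21-s against M (adjusted p = 0.0535). The difference of Por was 0.59 there, larger than the 0.51 of the main fit.

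Of 10 genes of arachidonate release and epoxide hydrolysis, 7 were tested and none was called in any of the 3 comparisons by limma. Ephx2 was at 127, 145 and 139 FPKM in D21-ovx, 113, 122 and 111 FPKM in D21-s and 142, 127 and 122 FPKM in M libraries. The difference was -0.17 (adjusted p = 0.192) in D21-s against M, 0.25 (adjusted p = 0.555) in D21-ovx against D21-s and 0.07 (adjusted p = 0.566) in D21-ovx against M. D21-ovx libraries lay above all D21-s libraries, as for 6.76% of all genes tested, without passing the test.

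Of 19 other P450s listed as acting on arachidonic acid, 6 were tested, and in both comparisons with males 2 were called higher and 3 lower. The other one, Cyp4f13, was not called, at 0.10 (adjusted p = 0.491) in D21-s against M and 0.14 (adjusted p = 0.310) in D21-ovx against M. Over all genes tested, 4.28% were called higher and 4.87% lower in D21-s against M, and 5.63% and 6.19% in D21-ovx against M. Cyp4a14, a fatty acid omega-hydroxylase, averaged 435 ± 63.4 FPKM in D21-ovx, 357 ± 22.8 in D21-s and 7.43 ± 5.81 in M libraries (SD, n = 3 each). Cyp4a10, of the same family, was also higher, at 3.11 (adjusted p = 0.00011) in D21-s against M and 3.30 (adjusted p = 6.29e-05) in D21-ovx against M. Cyp4a12a, the male-typical arachidonate omega-hydroxylase of the mouse, averaged 2.72 ± 2.01 FPKM in D21-ovx, 0.987 ± 0.104 in D21-s and 44.7 ± 11.2 in M libraries, and its near copy Cyp4a12b was lower too, at -2.32 (adjusted p = 0.000466) in D21-s and -1.67 (adjusted p = 0.00255) in D21-ovx against M. Reads of these near copies may have been split between them. Cyp2e1 averaged 134 ± 8.64 FPKM in D21-ovx, 84.9 ± 23.5 in D21-s and 619 ± 104 in M libraries. Cyp2c44, a known renal epoxygenase of the mouse, is not analysed here.

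**Figure D5:**
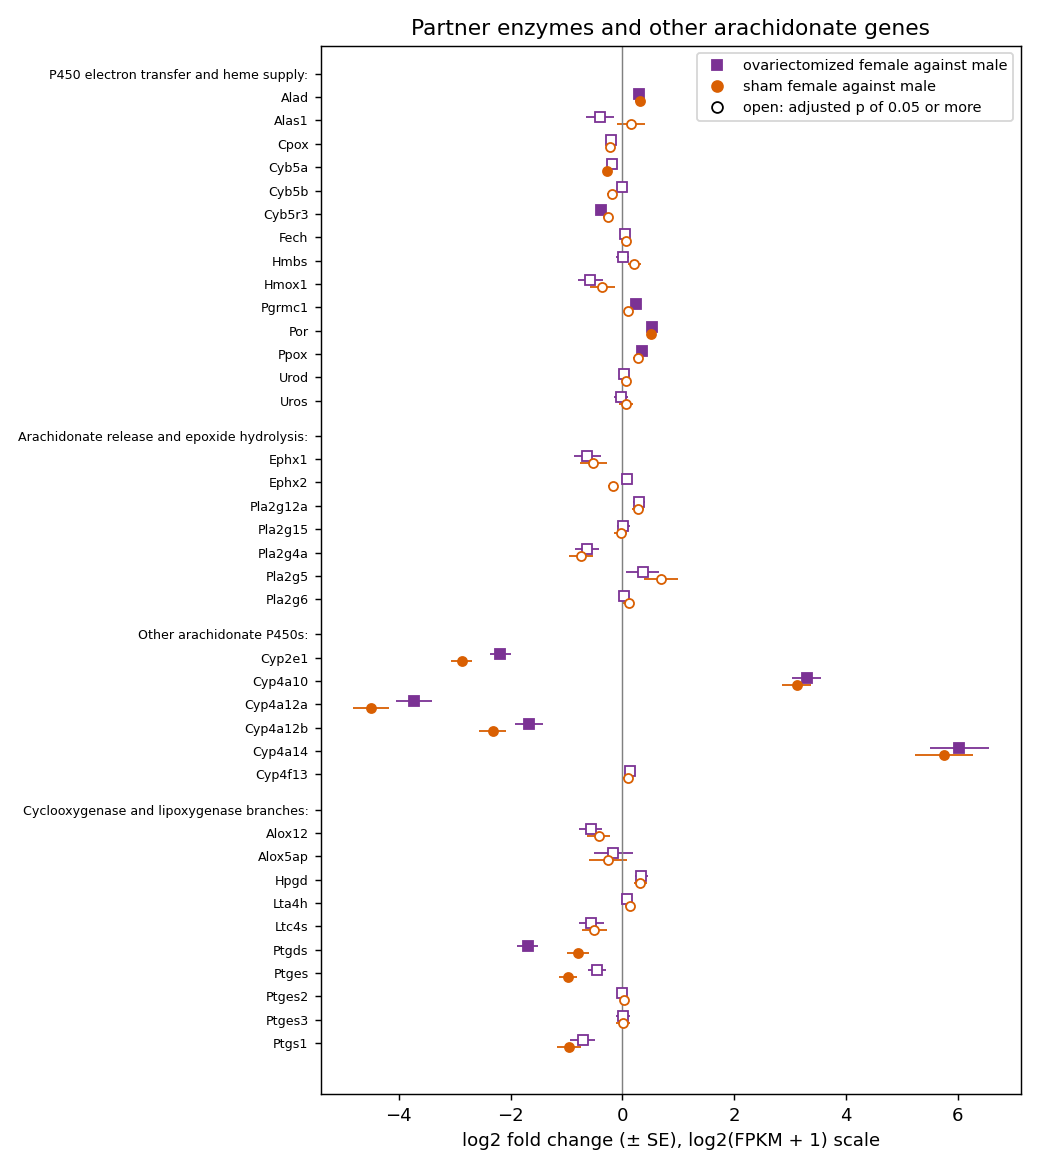
Differences (log2(FPKM + 1) scale, ± SE) for D21-ovx against M and D21-s against M of tested genes of electron transfer and heme supply, arachidonate release and epoxide hydrolysis, other arachidonate P450s, and the cyclooxygenase and lipoxygenase branches, with filled symbols at an adjusted p under 0.05. Cyp4a14 stands at 6.03 and 5.75 and Cyp4a12a at -3.72 and -4.50, while Ephx2, at 0.07 and -0.17, has open symbols.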

How the data were processed

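The authors deposited 1 table of FPKM per gene and library for all 9 samples, made with STAR 2.6.0c and RSEM, per the submitters' processing notes. For the RSEM version, genome build, annotation and strand setting, nothing is stated in the sources used here. Libraries were made from total RNA with a strand-specific kit, per the labels' protocols. No scaling between libraries is stated, and values were used as deposited. The members and gene lists were chosen with earlier results of these data known.

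Genes with at least 1 FPKM in at least 3 of 9 libraries (13160 of 52405) were tested on log2(FPKM + 1) in limma 3.58.1 (R 4.3.3), in 1 fit of the 3 groups with trended empirical Bayes, two-sided, with Benjamini-Hochberg adjustment. The fit was tested on simulated data. Depth was estimated from FPKM steps of 1 read at low-count transcripts of 300 to 800 bases. It came to 21750000 to 28750000 reads per library and serves only for read numbers beside low values, which cover counting error only. Genes most like a member were the 3 with the highest Pearson r over the 9 libraries, and predicted genes and other members were left out. From each list the text names the first gene and up to 4 called genes per comparison, except for a few genes that are not reported here. The other cells' marker score is the mean, over 36 tested markers of 41 listed for cells other than proximal tubule, of centred log2 values. It was 0.232 to 0.729 in M libraries and at most 0.135 in female libraries. A fit with it as a covariate therefore cannot tell cell make-up and sex apart. The labels state no pairing, so the main fit took the libraries as unpaired. Same-numbered libraries of D21-ovx and D21-s deviated together (r of 0.35, 0.17 and 0.29), and those with M libraries did not in every pair. The replicate number served as a block only in an alternative fit. Whether equal numbers stand for pairs was not tested. Positions are from GENCODE M21 (GRCm38), promoters from RefSeq (GRCm38.p6), and coding sequences were aligned with Biopython 1.88. Alternatives were other pseudocounts, filters, scalings, empirical Bayes settings, the replicate block, the marker score and leaving out each library.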

Additional observations from a re-analysis of the deposited data

How the results depend on the processing

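Under every alternative listed here Cyp2j11 and Cyp2j13 kept their calls and directions against M libraries, with Cyp2j11 at 1.24 to 1.39 in D21-s and 1.42 to 1.57 in D21-ovx, and Cyp2j13 at -7.63 to -6.04 and -8.42 to -6.29, the lower ends with a pseudocount of 0.1. In the main fit Cyp2j13 was tested only through its M values. The count of members called was 2 in D21-s against M (2 to 3 without 1 library), 0 in D21-ovx against D21-s (0 to 0) and 2 in D21-ovx against M (2 to 2), with Cyp2j7 as the additional call in D21-ovx against M under quantile normalization (0.62, adjusted p = 0.0314) and untrended empirical Bayes (0.52, adjusted p = 0.0390), a gene tested only through its female values. With the replicate block the counts of members were the same 2, 0 and 2, and all-gene calls were 1110, 0 and 1524, so that the block changed no member's call.

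All genes called in D21-s against M numbered 1204, but 739 without the filter, 722 with only these 2 groups fitted, 298 with the marker score as covariate and 570 to 1635 without 1 library; leaving out M replicate 2 or 3, or D21-s replicate 2 or 3, lowered the count by over 1.5 times. In D21-ovx against D21-s the 1 call became 2 without the filter, 0 under median-ratio scaling, quantile normalization, rescaling without mitochondrial genes or the block, 9 with only 2 groups, 3 untrended, 3 with the marker score and 0 to 11 without 1 library. In D21-ovx against M, 1555 became 639 with the marker score and 877 to 1698 without 1 library, with a drop of over 1.5 times for M replicate 2 or 3 or any D21-ovx replicate. The cause was not tested.

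Signs turned only in values that were not called. With the marker score, Cyp2j5 stood at -0.15 in D21-s against M and -0.0636 in D21-ovx against M, and in D21-ovx against M Cyp2j6 stood at 0.0506, Ephx2 at -0.0281 and Hook1 at -0.0447. Under quantile normalization Cyp2j5 stood at -0.0551 in D21-ovx against D21-s and Ephx2 at -0.0302 in D21-ovx against M, and under median-ratio scaling Hook1 stood at 0.0101 in D21-s against M. Without 1 library, Cyp2j5 ranged over -0.0359 to 0.116 and Cyp2j9 over -0.0173 to 0.244 in D21-ovx against D21-s, and Hook1 over -0.165 to 0.00997 in D21-s against M and -0.0458 to 0.129 in D21-ovx against M.

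Depth limits Cyp2j8 and Cyp2j12, and the female levels of Cyp2j13. With 3 libraries a group, an exact test cannot go below p = 0.1.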

Other observations

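Receptors for prolactin and growth hormone were measured in the same libraries. Prlr, encoding the prolactin receptor, was at 76.1, 78.5 and 57.2 FPKM in D21-ovx, 82.0, 74.1 and 70.5 FPKM in D21-s and 0.92, 0.66 and 1.17 FPKM in M libraries, a difference of 5.22 (adjusted p = 4.56e-08) in D21-ovx against M and 5.33 (adjusted p = 4.50e-08) in D21-s against M. Prlr passed the filter on low values only through the female libraries, where it was high, which limits what these p-values add. Ghr, encoding the growth hormone receptor, averaged 87.2 ± 4.6 FPKM in D21-ovx, 108 ± 4.18 in D21-s and 87.1 ± 3.12 in M libraries, and was called in D21-s against M (0.31, adjusted p = 0.0145). That call was lost without M replicate 3 (0.28, adjusted p = 0.0581). It was also lost with the other cells' marker score as a covariate (0.39, adjusted p = 0.0940), where the difference was larger than in the main fit.

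Of 13 transcription factors known to act on P450 genes, 12 were tested, and the same 3 were higher in D21-s and in D21-ovx than in M libraries. Over all genes tested, 4.28% were called higher in D21-s and 5.63% in D21-ovx against M. Ppara, the fatty acid receptor of Cyp4a genes, averaged 30.3 ± 3.06 FPKM in D21-ovx, 30.1 ± 1.89 in D21-s and 16.8 ± 2.54 in M libraries, higher by 0.82 (adjusted p = 0.00185) in D21-ovx and 0.82 (adjusted p = 0.00252) in D21-s. Nr1i2, encoding the pregnane X receptor, was higher by 0.63 (adjusted p = 0.0103) in D21-ovx and 0.49 (adjusted p = 0.0370) in D21-s, and Cebpa by 0.52 (adjusted p = 0.0131) in D21-ovx and 0.43 (adjusted p = 0.0352) in D21-s. In D21-s against M, leaving out 1 library ended the call of Nr1i2 in 5 of 6 cases and that of Cebpa in 4 of 6. With the other cells' marker score as a covariate, all 3 calls in D21-s against M were lost (Ppara 0.64, adjusted p = 0.133; Nr1i2 0.37, adjusted p = 0.523; Cebpa 0.18, adjusted p = 0.702). In D21-ovx against M those of Nr1i2 (0.54, adjusted p = 0.141) and Cebpa (0.32, adjusted p = 0.213) were lost, and Cebpa was also lost there without M replicate 3 or D21-ovx replicate 3 (adjusted p = 0.0510 and 0.0560). Hnf4a, a proximal tubule factor, averaged 189 ± 22.2 FPKM in D21-ovx, 192 ± 14.3 in D21-s and 162 ± 14.6 in M libraries and was not called.

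Of 13 genes of the cyclooxygenase and lipoxygenase branches, 10 were tested. Over all genes tested, 4.87% were called lower in D21-s and 6.19% in D21-ovx against M. Ptgs1, encoding cyclooxygenase 1, was lower at -0.96 (adjusted p = 0.0302), Ptges at -0.98 (adjusted p = 0.00612) and Ptgds at -0.80 (adjusted p = 0.0323) in D21-s against M, and Ptgds alone was called in D21-ovx against M, at -1.70 (adjusted p = 0.000493). Summed markers of collecting duct cells were lower in the same libraries, and with the other cells' marker score as a covariate the first 3 calls were lost, at -0.22, -0.53 and -0.64. That setting cannot tell cell make-up and sex apart, since the score was higher in every M library than in any female library. Of 18 alternative settings, that one included, 8 ended the call of Ptgs1, 1 that of Ptges and 8 that of Ptgds in D21-s against M. In D21-ovx against M, 0 ended the call of Ptgds. The part of cell make-up in these values was not tested.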
